A study of Mus musculus with 6 samples.

Results

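The 10 genes described here encode the insulin receptor, its substrates and the kinases and transcription factors that act after it: Insr, Irs1, Irs2, Pik3r1, Pik3ca, Akt1, Akt2, Foxo1, Foxo3 and Grb10. They were chosen by name, and every probe set paired with exactly 1 of these genes was taken, which gave 23 of the 22690 probe sets of the array. The array held 20380 probe sets paired with 1 gene, for 12393 genes in all. Gene expression was measured in livers of wild-type male C57Bl/6 mice from Jackson Laboratories with the Mouse Genome 430A 2.0 array, 6 h after an injection into the jugular vein. The groups were purified FGF15, recombinant FGF19 and vehicle, with 2 arrays each. In all 3 groups food was withheld for those 6 h, and no group differed in genotype. The dose, what the vehicle held and how old the animals were are not given in the sources read. Whether the 2 arrays of a group are 2 animals is not stated either, and the p-values therefore reflect array-to-array spread that may be technical.

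Insulin binds a receptor tyrosine kinase that phosphorylates the docking proteins IRS1 and IRS2. These recruit phosphatidylinositol 3-kinase (PI3K), whose lipid product activates the AKT kinases. In liver, AKT promotes glycogen and fat synthesis and keeps the FOXO transcription factors out of the nucleus, where they drive genes of glucose output, and the adaptor GRB10 binds the active receptor and restrains it. FGF15, an ileal hormone of the mouse, and FGF19, its human orthologue, act on liver through another receptor kinase and its co-receptor and share with insulin effects on glucose output. The signalling from receptor to AKT and FOXO runs largely through phosphorylation of proteins and lipids, which an expression array does not measure.

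Of the 10 genes, Grb10 gave the largest difference from vehicle with either hormone. Foxo1 was lower with FGF15 and separated the hormones at 1 probe set only, in a call held in 14 of 18 alternative settings. For Akt1 and Pik3r1, 1 probe set each fell in calls that many alternative settings ended. The words rose, fell and changed stand for an adjusted p below 0.05 in limma, a linear model with moderated variances, with Benjamini-Hochberg adjustment over the 16983 probe sets that passed a filter on low signals. Differences are on the log2(signal + 32) scale, errors of differences are standard errors with n = 2 arrays per group, and the offset understates the change of low signals. Of the 23 probe sets, 21 passed the filter. With FGF15, 4 of the 21 fell and 0 rose, in 3 genes, against a background of 10.5% of all tested probe sets called in either direction, 5.81% lower and 4.73% higher. With FGF19, 2 fell and 0 rose, in 2 genes, against a background of 11.5%, with 6.33% lower and 5.15% higher. At an unadjusted p under 0.05 there were 8 with FGF15 and 5 with FGF19, where all probe sets gave 24.6% and 26.5%. The median difference over the 21 probe sets was -0.21 with FGF15 and -0.18 with FGF19, and the medians over all tested probe sets were -0.05 and -0.07. Both comparisons use the same vehicle arrays.

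The median signal was 51.3 to 55.2 on the FGF15 arrays, 50.8 to 52.2 on the FGF19 arrays and 59.4 to 61.4 on the vehicle arrays, after the deposited scaling. Centring each array on its median instead moved the median of all differences to 0.07 with either hormone. It also moved the share of higher calls to 72.1% with FGF15 and 78.2% with FGF19, against 44.9% and 44.8% on the deposited scale, and it moved the member medians to -0.09 and -0.03. FGF19 replicate 1 stood apart in its control probe sets, with an 18S rRNA signal of 31.2 against 16.5 to 20.7 on the other arrays. Its β-actin 3' to 5' signal ratio, a measure of RNA integrity that is higher in degraded RNA, was 1.63, against 1.30 to 1.39 on the others. Markers of hepatocytes were high in every group, with summed signals of 84819 to 90942 with FGF15, 73185 to 92171 with FGF19 and 96717 to 98252 with vehicle. Of 12 tested Kupffer cell markers (liver macrophages), 10 fell with each hormone. Their summed signal was 3693 to 3791 with FGF15, 3658 to 3697 with FGF19 and 6681 to 6762 with vehicle. In whole liver, fewer cells of a type and less RNA per cell cannot be told apart.

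The sequences before the transcription start are shown for Grb10, which fell with both hormones, for Foxo1, which fell with FGF15, and for both IRS genes, whose windows shared motifs. RefSeq windows of the mouse build GRCm38.p6 were used for 15 start sites of 9 of the 10 genes, 250 bases each, ending at the base before the start. Capitals mark matches on either strand to 4 motifs: GGGCGG, the GC box; CCAAT, which binds NF-Y; CACGTG, the E-box; and CAAAACAA, the core of the insulin response element. In Irs2 the E-box and the element lie next to each other and share no base.
Grb10, upstream start: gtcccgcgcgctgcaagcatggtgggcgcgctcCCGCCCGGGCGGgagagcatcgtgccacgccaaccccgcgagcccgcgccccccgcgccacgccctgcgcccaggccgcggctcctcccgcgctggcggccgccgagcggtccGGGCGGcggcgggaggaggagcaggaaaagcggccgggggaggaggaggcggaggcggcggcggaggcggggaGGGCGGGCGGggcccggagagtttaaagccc
Grb10, downstream start: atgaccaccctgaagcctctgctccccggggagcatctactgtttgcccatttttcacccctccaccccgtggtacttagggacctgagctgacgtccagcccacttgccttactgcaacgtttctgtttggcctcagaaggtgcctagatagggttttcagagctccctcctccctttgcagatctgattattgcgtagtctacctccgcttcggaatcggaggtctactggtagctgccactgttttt
Foxo1: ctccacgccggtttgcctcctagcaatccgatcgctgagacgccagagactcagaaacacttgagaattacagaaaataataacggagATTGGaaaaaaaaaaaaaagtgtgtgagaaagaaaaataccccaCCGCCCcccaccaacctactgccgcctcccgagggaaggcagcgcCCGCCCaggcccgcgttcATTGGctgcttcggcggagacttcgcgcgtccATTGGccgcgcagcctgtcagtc
Irs1: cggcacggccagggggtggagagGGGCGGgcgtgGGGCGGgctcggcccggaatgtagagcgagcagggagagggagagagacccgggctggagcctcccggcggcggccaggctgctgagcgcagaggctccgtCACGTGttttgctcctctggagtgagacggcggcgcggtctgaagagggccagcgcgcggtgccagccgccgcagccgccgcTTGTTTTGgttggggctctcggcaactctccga
Irs2: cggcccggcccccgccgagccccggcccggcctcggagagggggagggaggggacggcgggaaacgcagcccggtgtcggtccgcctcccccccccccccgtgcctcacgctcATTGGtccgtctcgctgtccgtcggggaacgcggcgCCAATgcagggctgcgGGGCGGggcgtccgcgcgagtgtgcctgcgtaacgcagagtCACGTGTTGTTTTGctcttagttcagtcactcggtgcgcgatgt
These are chr11:12037421-12037670 and chr11:12027972-12028221 for Grb10, both read on the minus strand, chr3:52268087-52268336 for Foxo1 on the plus strand, chr1:82291440-82291689 for Irs1 and chr8:11008930-11009179 for Irs2, both on the minus strand. The upstream Grb10 window held 81.2% G and C with 5 GC boxes, 2 of which overlap, and the downstream one 54% with none of the motifs. The Foxo1 window held 2 GC boxes and 3 CCAAT motifs. The letters of the insulin response element stood 33 bases before the start of Irs1 and 38 bases before that of Irs2, each on the reverse strand and each with an E-box, at 115 and 44 bases. Over all 32851 windows of this length, 2.21% held that element, 6.02% an E-box, 32.7% a GC box and 33.8% the CCAAT motif, against 2, 2, 9 and 3 of the 15 member windows. The FOXO site GTAAACA stood in 3.17% of all windows and in 1 of the 15, at 161 bases before a start of Akt1, while the cAMP response element TGACGTCA (1.55% of all windows) and the EGR1 site GCGTGGGCG (0.536%) stood in 0 of the 15. These matches describe the letters of the windows and were not set against binding data.

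Signals of the insulin receptor gene were low. Probe set 1450225_at of Insr gave 34.5 and 25.6 with FGF15, 25.5 and 24.3 with FGF19, and 16.8 and 23.7 with vehicle. The other probe set, 1421380_at, gave 30.1 and 16.2 with FGF15, 17.5 and 11.6 with FGF19, and 23.8 and 19.8 with vehicle. For the first of them the arrays of both hormones lay above those of vehicle, while for the second the FGF15 arrays overlapped vehicle and the FGF19 arrays lay below it. The differences were 0.25 ± 0.18 and 0.03 ± 0.20 with FGF15 (adjusted p = 0.431 and 0.957) and 0.13 ± 0.18 and -0.21 ± 0.20 with FGF19 (adjusted p = 0.693 and 0.539). Because 5 of 6 signals of one probe set and all 6 of the other lay under 32, the offset, the array gives little on changes of this gene.

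Grb10, whose protein binds the active insulin receptor through an SH2 domain and inhibits it, fell with both hormones. Probe set 1425458_a_at gave 42.7 and 32.4 with FGF15, 38.5 and 54.9 with FGF19, and 163.5 and 141.6 with vehicle. All 4 hormone arrays lay far below both vehicle arrays, and the arrays of the 2 hormones overlapped. The mean signal was 37.6 ± 7.33 with FGF15, 46.7 ± 11.6 with FGF19 and 152.5 ± 15.5 with vehicle (SD, n = 2). The difference from vehicle was -1.41 ± 0.16 with FGF15, or 2.66-fold lower (adjusted p = 0.00046), and -1.23 ± 0.16 with FGF19, or 2.35-fold lower (adjusted p = 0.00101). These folds are of signal + 32 and are smaller than those between the mean signals. With FGF19 set against FGF15 the difference was 0.17 ± 0.16, with a 95% interval of -0.18 to 0.53 (adjusted p = 0.669). The fall was called in all 20 alternative settings with either hormone, each left-out array among them.

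The other Grb10 probe sets were dim. Probe set 1425457_a_at, designed on the same source sequence, gave 13.7 and 20.7 with FGF15, 7.26 and 29.4 with FGF19, and 46.0 and 37.9 with vehicle. Here too the hormone arrays lay below both vehicle arrays, at differences of -0.59 ± 0.23 for each hormone that did not pass the test (adjusted p = 0.142 and 0.131). Probe set 1430164_a_at, designed on another sequence, gave 17.7 and 30.2 with FGF15, 21.3 and 24.0 with FGF19, and 15.3 and 34.6 with vehicle, and its groups overlapped, at -0.01 ± 0.21 and -0.04 ± 0.21. Averaging the 3 probe sets lowered the size of the Grb10 difference to -0.67 with FGF15 and -0.62 with FGF19, both still called. The suffix _a_at marks probe sets that can bind several transcripts of one gene. The Kupffer cell markers given above moved in the same direction. Of 5 tested neutrophil markers 3 fell with FGF15 and 1 with FGF19, at summed signals of 306 to 334 with FGF15, 487 to 503 with FGF19 and 617 to 629 with vehicle. Of 10 stellate cell markers 3 fell with FGF15 and 2 with FGF19, at sums of 2382 to 2455 with FGF15, 2460 to 2663 with FGF19 and 2883 to 2971 with vehicle. Of 12 sinusoidal endothelial markers 1 fell with FGF15 and 0 with FGF19. Of 3 cholangiocyte markers and 6 markers of T, B and NK cells 0 fell with either. Of 2 adipocyte markers 1 fell with each hormone. Over all tested probe sets 5.81% fell with FGF15 and 6.33% with FGF19. The part of any of these cells in the fall of Grb10 was not tested. By the root mean square difference over the 6 arrays on the log2 scale, with each probe set centred on its vehicle mean, the genes most like Grb10 among 9682 candidates were Wfdc12, Srxn1 and Trat1, at 0.08, 0.12 and 0.14.

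**Figure D1:**
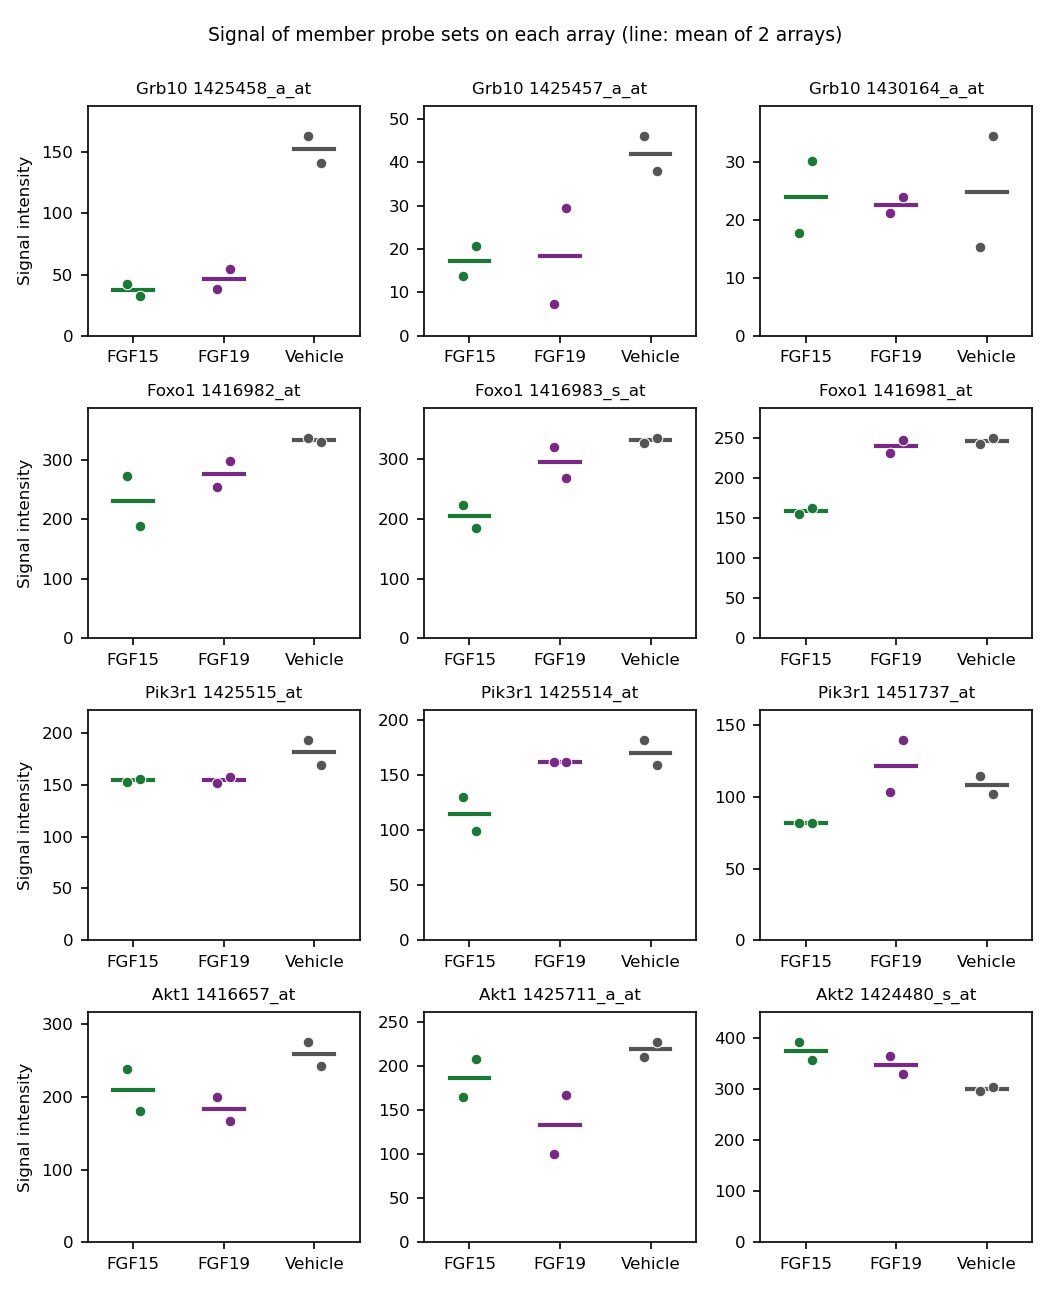
Signal intensity (linear axis from 0) of 12 probe sets of Grb10, Foxo1, Pik3r1, Akt1 and Akt2 on each array; points are arrays, lines the mean of 2 arrays, and groups run FGF15, FGF19, vehicle. For Grb10 1425458_a_at the hormone arrays sit between 32.4 and 54.9 and the vehicle arrays at 141.6 and 163.5, and for Foxo1 1416981_at the FGF15 arrays alone sit low.

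The docking proteins showed no change that passed the test. Irs1 (1423104_at), the substrate of the receptor in many tissues, gave 101.7 and 97.5 with FGF15, 103.1 and 88.4 with FGF19, and 108.1 and 119.1 with vehicle. All 4 hormone arrays lay below both vehicle arrays, at differences of -0.15 ± 0.12 (adjusted p = 0.511) with FGF15 and -0.19 ± 0.12 (adjusted p = 0.355) with FGF19. Irs2 (1443969_at), which in liver is raised in fasting through FOXO1, gave 56.7 and 73.5 with FGF15, 80.1 and 65.3 with FGF19, and 78.8 and 94.0 with vehicle. Its FGF15 arrays lay below vehicle and its FGF19 arrays overlapped it, and the differences were -0.29 ± 0.15 (adjusted p = 0.275) and -0.18 ± 0.15 (adjusted p = 0.495). The 95% intervals were -0.62 to 0.05 with FGF15 and -0.51 to 0.16 with FGF19, so a moderate fall of Irs2 is within what these arrays allow. Each IRS gene was measured by a single probe set.

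Pik3r1 encodes the alpha regulatory subunit of PI3K, which docks on the IRS proteins, and its 3 probe sets shared one source sequence but differed. Probe set 1425514_at gave 129.5 and 98.8 with FGF15, 161.4 and 162.1 with FGF19, and 181.5 and 159.0 with vehicle. The FGF15 arrays lay below all others, and the FGF19 arrays lay within the range of vehicle. It fell with FGF15, by 0.47 ± 0.13 on the log2 scale (adjusted p = 0.0403), and the difference with FGF19 was -0.06 ± 0.13 (adjusted p = 0.802). This call was held in 7 of 18 alternative settings. It was lost when arrays were centred on their medians (-0.36, adjusted p = 0.0794), and without vehicle replicate 1 (0.223), vehicle replicate 2 (0.0868), FGF15 replicate 2 (0.202), FGF19 replicate 1 (0.0637) or FGF19 replicate 2 (0.0635), given as adjusted p.

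The brightest probe set of Pik3r1, 1425515_at, gave 152.9 and 155.7 with FGF15, 151.6 and 157.4 with FGF19, and 193.0 and 169.2 with vehicle. All 4 hormone arrays lay below vehicle, at -0.19 ± 0.10 with either hormone (adjusted p = 0.288 and 0.273). Probe set 1451737_at gave 82.1 and 81.9 with FGF15, 103.6 and 139.6 with FGF19, and 114.6 and 102.3 with vehicle, at -0.30 ± 0.14 (adjusted p = 0.219) and 0.12 ± 0.14 (adjusted p = 0.623). For FGF19 set against FGF15 the probe sets 1425514_at and 1451737_at gave 0.41 ± 0.13 and 0.42 ± 0.14 (adjusted p = 0.129 and 0.168), and 1425515_at gave 0.00 ± 0.10. The catalytic subunit gene Pik3ca gave 142.4 and 175.9 with FGF15, 175.8 and 166.0 with FGF19, and 143.7 and 137.4 with vehicle at 1460326_at. Its FGF19 arrays lay above vehicle and its FGF15 arrays overlapped it, with differences of 0.14 ± 0.11 for FGF15 (adjusted p = 0.492) and 0.23 ± 0.11 for FGF19 (adjusted p = 0.226). The second Pik3ca probe set, 1423144_at, gave 0.14 ± 0.11 and 0.17 ± 0.11, and here all hormone arrays (118.1 to 135.4) lay above both vehicle arrays (107.2 and 115.7).

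Arrays of both hormones lay below vehicle for Akt1 and above it for Akt2, but only Akt1 1425711_a_at with FGF19 passed the test. Of all tested probe sets, 32.8% had both FGF15 arrays below vehicle and 21.2% above it. With FGF19 these shares were 36.9% and 20.3%. Akt1 probe set 1425711_a_at gave 164.9 and 208.8 with FGF15, 100.05 and 167.5 with FGF19, and 211.0 and 227.3 with vehicle. The hormone arrays lay below vehicle, and the lowest signal was that of FGF19 replicate 1, the array that stood apart in its controls. It fell with FGF19, by 0.63 ± 0.18 (adjusted p = 0.0494), and the difference with FGF15 was -0.21 ± 0.18 (adjusted p = 0.529). The call was held in 5 of 18 alternative settings. Without FGF19 replicate 1 the difference was -0.33 (adjusted p = 0.255), and the call was also lost on leaving out FGF15 replicate 1 (0.05), FGF15 replicate 2 (0.0516), vehicle replicate 1 (0.151) or vehicle replicate 2 (0.188). Without FGF19 replicate 2 it was -0.93 (adjusted p = 0.00826). The brighter probe set, 1416657_at, gave 238.8 and 181.2 with FGF15, 200.2 and 166.9 with FGF19, and 274.9 and 242.3 with vehicle. All hormone arrays were again below vehicle, at -0.27 ± 0.13 (adjusted p = 0.243) with FGF15 and -0.43 ± 0.13 (adjusted p = 0.0652) with FGF19. The part of RNA quality in the Akt1 values was not tested.

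Akt2, the AKT gene through which insulin controls glucose and fat metabolism in liver for the most part, had higher signals with both hormones. Probe set 1424480_s_at gave 390.7 and 356.1 with FGF15, 364.1 and 328.7 with FGF19, and 295.2 and 302.6 with vehicle, with all hormone arrays above vehicle. The differences were 0.29 ± 0.09 (adjusted p = 0.0647) with FGF15 and 0.19 ± 0.09 (adjusted p = 0.197) with FGF19. Probe set 1421324_a_at gave 192.1 and 191.0 with FGF15, 151.0 and 183.7 with FGF19, and 145.6 and 144.8 with vehicle, also with no overlap between hormone and vehicle arrays. Here the differences were 0.33 ± 0.11 (adjusted p = 0.0848) and 0.16 ± 0.11 (adjusted p = 0.372). None of the 4 passed the test on the deposited scale. When arrays were centred on their medians, both probe sets passed with FGF15, at 0.41 (adjusted p = 0.0162) and 0.45 (adjusted p = 0.0225), and 1424480_s_at passed with FGF19, at 0.34 (adjusted p = 0.0361). That centring also moved the share of higher calls over all probe sets to 72.1% with FGF15 and 78.2% with FGF19. With FGF15, 1424480_s_at passed in 3 of 20 alternative settings and 1421324_a_at in 1 of 18. Neither passed in any of the 6 fits with 1 array left out. Probe sets ending in _s_at can bind transcripts of related genes.

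Foxo1, the main FOXO factor of liver and an activator of G6pc and Pck1, fell with FGF15. Probe set 1416981_at gave 154.3 and 162.7 with FGF15, 230.7 and 247.1 with FGF19, and 242.3 and 249.5 with vehicle. Both FGF15 arrays were lowest, and the FGF19 arrays overlapped those of vehicle. The difference was -0.54 ± 0.09 with FGF15, or 1.46-fold lower (adjusted p = 0.00463), and -0.04 ± 0.09 with FGF19 (adjusted p = 0.832). The fall with FGF15 was called in all 18 alternative settings. Set against each other, FGF19 was higher than FGF15 by 0.51 ± 0.09 (adjusted p = 0.0138). That difference was not called without FGF15 replicate 1 (adjusted p = 0.0807), FGF19 replicate 1 (0.0609) or FGF19 replicate 2 (0.0893), nor without the intensity trend of the variance (0.0755), at values of 0.44 to 0.55 over all 18 settings.

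The remaining Foxo1 probe sets of the same source sequence gave the same order for FGF15 and vehicle. Probe set 1416983_s_at gave 224.4 and 185.0 with FGF15, 321.2 and 268.8 with FGF19, and 328.4 and 336.1 with vehicle, and the brightest, 1416982_at, gave 271.8 and 188.3 with FGF15, 253.9 and 297.7 with FGF19, and 336.2 and 330.2 with vehicle. In both, all hormone arrays lay below vehicle. Probe set 1416983_s_at fell with FGF15, by 0.63 ± 0.11 (adjusted p = 0.00623), and this call was lost without vehicle replicate 2 (adjusted p = 0.0507). At 1416982_at the difference was -0.50 ± 0.14 (adjusted p = 0.0525), and it turned on the array left out: -0.73 without FGF15 replicate 1 (adjusted p = 0.00801), -0.27 without FGF15 replicate 2 (0.244), and adjusted p = 0.2 and 0.167 without vehicle replicate 1 and 2. With FGF19 they gave -0.16 ± 0.11 and -0.25 ± 0.14 (adjusted p = 0.397 and 0.293). For FGF19 set against FGF15 they gave 0.47 ± 0.11 (adjusted p = 0.0559) and 0.25 ± 0.14 (adjusted p = 0.463), so the difference between the hormones rests on 1 of these 3 probe sets. Probe sets of one sequence are not independent of each other. The fourth, 1456529_at, lay under the filter, at 3.48 and 4.24 with FGF15, 3.80 and 14.4 with FGF19, and 6.62 and 4.49 with vehicle, and was not tested.

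Foxo3, a related factor with targets in cell survival and autophagy, did not pass the test. Probe set 1434832_at gave 169.2 and 114.7 with FGF15, 135.8 and 110.5 with FGF19, and 155.5 and 178.4 with vehicle. Only the FGF19 arrays were both below vehicle, at -0.36 ± 0.16 (adjusted p = 0.179), against -0.21 ± 0.16 (adjusted p = 0.464) for FGF15. Probe set 1434831_a_at gave -0.26 ± 0.16 with FGF15 (adjusted p = 0.338) and -0.21 ± 0.16 with FGF19 (adjusted p = 0.427). The remaining Foxo3 probe set, 1450236_at, read 7.06 to 16.3 over all arrays and was not tested.

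**Figure D2:**
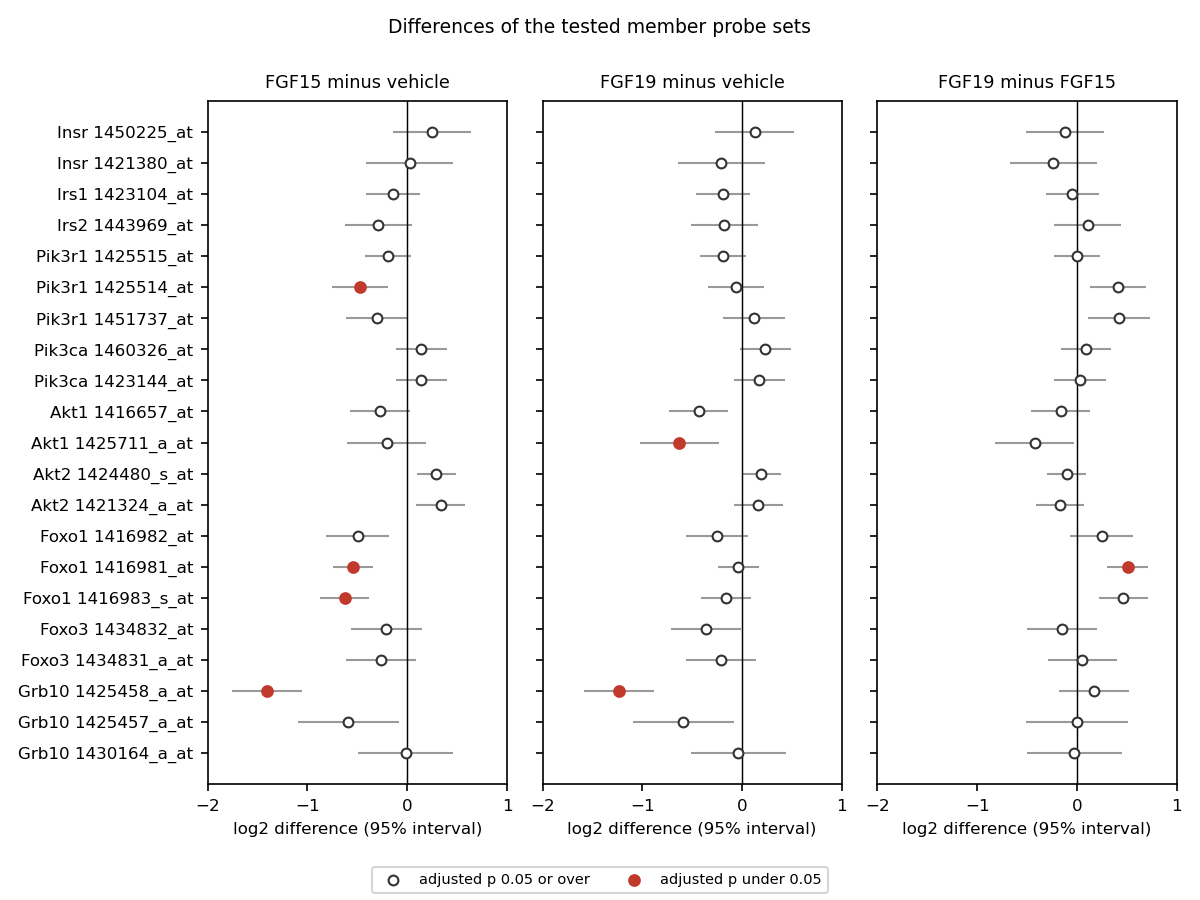
Differences of the 21 tested probe sets on the log2(signal + 32) scale (horizontal axis) with 95% intervals, for FGF15 minus vehicle, FGF19 minus vehicle and FGF19 minus FGF15; filled red points have an adjusted p under 0.05. Grb10 1425458_a_at is at -1.41 and -1.23 in the comparisons with vehicle, and Foxo1 1416981_at is the 1 filled point of FGF19 minus FGF15, at 0.51.

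Set directly against each other, FGF19 and FGF15 differed in 1 of the 21 probe sets, the Foxo1 probe set 1416981_at, which was higher with FGF19, against a background of 3.31% of all tested probe sets called (1.97% higher and 1.34% lower). At an unadjusted p under 0.05 there were 5, where all probe sets gave 15.4%. Without FGF15 replicate 1 or FGF19 replicate 1 the count was 0. Without FGF19 replicate 2 it was again 1, but the probe set was Akt1 1425711_a_at, lower with FGF19 by -0.72 (adjusted p = 0.0479). The median over the 21 was 0.00, against -0.02 over all tested probe sets. In each comparison with vehicle the vehicle arrays are shared, so the values stand side by side: Pik3r1 1425514_at passed with FGF15 and not with FGF19, and Akt1 1425711_a_at passed with FGF19 and not with FGF15. The test between the hormones gave adjusted p = 0.129 and 0.292 for these, so neither was shown to differ between them.

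Groups can also be described by whether their arrays overlap. In 13 of the 21 probe sets both FGF15 arrays lay below both vehicle arrays and in 4 above, where all probe sets gave 32.8% and 21.2%. With FGF19, 10 lay below and 5 above, where all gave 36.9% and 20.3%. Between the hormones, 4 were higher and 2 lower with FGF19, against 19.9% and 24.8% of all. For the mean of both hormones minus vehicle, 3 fell and 0 rose, in 2 genes, against a background of 13.2% (5.91% higher and 7.25% lower), and 10 had an unadjusted p under 0.05 where all gave 28.1%. These were Grb10 1425458_a_at at -1.32 (adjusted p = 0.00024) and the Foxo1 probe sets 1416983_s_at at -0.39 (adjusted p = 0.0249) and 1416981_at at -0.29 (adjusted p = 0.0384), the last of which averages a fall with FGF15 and a value near 0 with FGF19. Neither Foxo1 call of this contrast held without vehicle replicate 1 (adjusted p = 0.133 and 0.162), vehicle replicate 2 (0.143 and 0.19), FGF15 replicate 2 (0.056 and 0.0548) or FGF19 replicate 2 (0.0627 and 0.0585), and 1416981_at was also lost without FGF15 replicate 1 (0.0671) or FGF19 replicate 1 (0.094). Centring arrays on their medians ended both as well, at -0.26 (adjusted p = 0.0945) for 1416983_s_at and -0.16 (adjusted p = 0.272) for 1416981_at.

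Among the other genes of the pathway, each taken by its brightest probe set, counts are set against the shares of all tested probe sets called: 4.73% higher and 5.81% lower with FGF15, and 5.15% higher and 6.33% lower with FGF19. Of 18 tested genes at the receptor, 1 fell with FGF15 and 2 with FGF19, and 0 rose, which is near those shares, with medians of -0.15 and -0.10. The one lower with both was Grb14, which belongs to the same family as Grb10 and inhibits the insulin receptor in liver. It gave 345.7 and 355.5 with FGF15, 353.6 and 365.7 with FGF19, and 463.5 and 463.8 with vehicle, with hormone and vehicle arrays well apart. The differences were -0.37 ± 0.08 (adjusted p = 0.0121) and -0.34 ± 0.08 (adjusted p = 0.0185). These calls were lost when arrays were centred on their medians or when either vehicle array was left out, the FGF15 call also without FGF15 replicate 1 and the FGF19 call also without either FGF19 array (adjusted p up to 0.0879 and 0.188). Grb7, another member of that family, gave 282.6 and 308.4 with FGF15, 193.3 and 153.4 with FGF19, and 262.1 and 288.4 with vehicle. It fell with FGF19, by 0.59 ± 0.11 (adjusted p = 0.00924), and differed between the hormones by -0.68 ± 0.11 (adjusted p = 0.00868). Without FGF19 replicate 2 or the variance trend neither held, nor did the first without vehicle replicate 2 (adjusted p up to 0.0752) or the second without FGF15 replicate 2 (up to 0.0804, without the trend).

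Of 10 tested PI3K and phosphoinositide enzymes, 0 changed with FGF15 and 1 fell with FGF19. It was Inppl1 (-0.59 ± 0.15, adjusted p = 0.0354), a phosphatase that acts on the lipid product of PI3K, and the call was lost without either vehicle array or FGF19 replicate 2, and when arrays were centred on their medians (adjusted p up to 0.222). Among 9 tested AKT-related kinases and regulators, 2 rose with each hormone. Trib1, a pseudokinase that limits lipid synthesis in liver, gave 178.3 and 225.6 with FGF15, 358.1 and 426.2 with FGF19, and 142.7 and 130.3 with vehicle. It rose by 0.47 ± 0.12 with FGF15 (adjusted p = 0.0395) and by 1.33 ± 0.12 with FGF19 (adjusted p = 0.00014), and the hormones differed by 0.86 ± 0.12 (adjusted p = 0.00419). Without the variance trend, neither the FGF15 call (adjusted p = 0.114) nor the Trib1 difference between the hormones (0.0552) held. Its FGF15 call did not hold without either vehicle array or FGF15 replicate 2, nor when averaged with its dim second probe set (adjusted p up to 0.319), which gave -0.13 with FGF15 and 0.05 with FGF19.

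Sgk1, a kinase related to AKT that glucocorticoids induce, gave 190.1 and 218.4 with FGF15, 523.6 and 502.1 with FGF19, and 248.5 and 287.5 with vehicle. It rose with FGF19, by 0.86 ± 0.10 (adjusted p = 0.00052), gave -0.34 ± 0.10 with FGF15 (adjusted p = 0.055), and differed between the hormones by 1.21 ± 0.10 (adjusted p = 0.00015). Sgk2, of the same kinase family, rose with FGF15, by 0.59 ± 0.13 (adjusted p = 0.0213), a call lost without vehicle replicate 2 or either FGF15 array (adjusted p up to 0.138). Of 14 tested AKT and mTOR substrates and regulators, 1 rose and 1 fell with FGF15, and 2 rose and 1 fell with FGF19. With arrays centred on their medians 5 rose and 0 fell with FGF19, and with 1 array left out 0 to 2 rose. Acly, the AKT substrate that supplies acetyl-CoA for fat synthesis, rose with both, at 0.63 ± 0.06 (adjusted p = 0.00024) and 0.27 ± 0.06 (adjusted p = 0.0214), the FGF19 call not without either vehicle array (adjusted p up to 0.141). Eif4ebp1, a repressor of translation released by mTOR, fell with FGF15, by 0.52 ± 0.08 (adjusted p = 0.004). Its dimmest probe set instead fell with FGF19, by 0.72 ± 0.15 (adjusted p = 0.0132). Deptor, an mTOR inhibitor, gave -0.30 ± 0.08 with FGF19 (adjusted p = 0.0335) and Eif4ebp2 0.31 ± 0.08 (adjusted p = 0.0397). Both calls were lost without either vehicle array or either FGF19 array, and other probe sets of these genes differed in size or sign.

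Of 16 tested negative regulators of insulin signalling, 1 rose and 2 fell with FGF15, and 2 rose and 3 fell with FGF19, Grb14 and Inppl1 among them. With arrays centred on their medians the counts were 1 and 1 with FGF15 and 3 and 1 with FGF19. Socs3, which inhibits cytokine and insulin receptors, gave 789.5 and 920.7 with FGF15, 908.1 and 775.2 with FGF19, and 571.6 and 511.3 with vehicle. It rose with both, at 0.63 ± 0.10 (adjusted p = 0.00393) and 0.61 ± 0.10 (adjusted p = 0.00475), and its other probe sets also rose. The FGF19 call was lost without vehicle replicate 2 (adjusted p up to 0.0529 over all settings). Socs2, an inhibitor of growth hormone signalling, gave 767.8 and 934.1 with FGF15, 503.4 and 558.7 with FGF19, and 1194 and 1215 with vehicle. It fell by 0.49 ± 0.10 with FGF15 (adjusted p = 0.0103) and by 1.14 ± 0.10 with FGF19 (adjusted p = 7.4e-05), and the hormones differed by -0.64 ± 0.10 (adjusted p = 0.00478). The FGF15 call did not hold without either vehicle array, FGF15 replicate 1 or the variance trend (adjusted p up to 0.0768, without the trend). The Socs2 difference between the hormones was also lost without the trend (adjusted p = 0.0851).

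**Figure D3:**
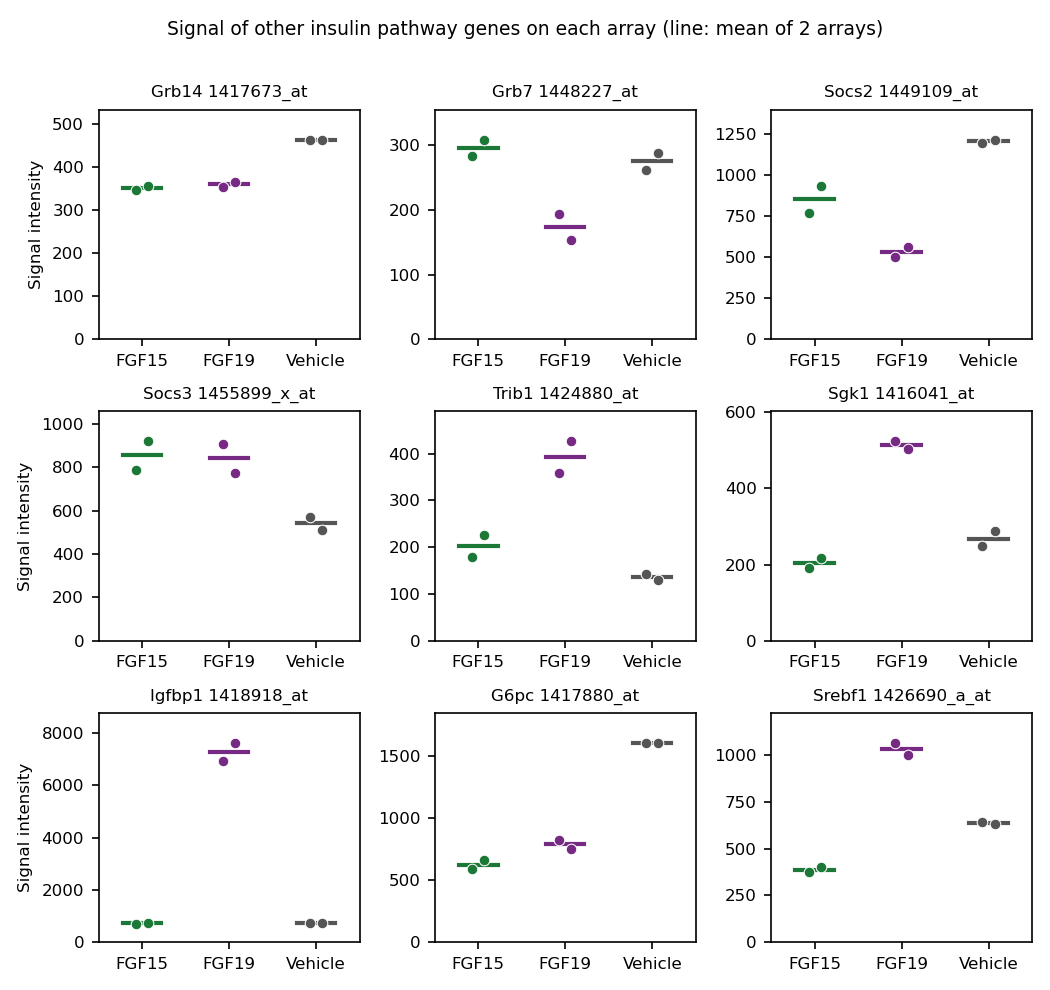
Signal intensity (linear axes from 0) of 9 other insulin pathway genes on each array; points are arrays, lines the mean of 2 arrays, and groups run FGF15, FGF19, vehicle. Grb14, Socs3 and G6pc lie on one side of vehicle with both hormones, while Igfbp1 and Sgk1 are high with FGF19 alone and Srebf1 lies below vehicle with FGF15 and above it with FGF19.

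Of 15 tested FOXO family members and cofactors, 1 rose with each hormone, and with arrays centred on their medians 1 rose with FGF15 and 2 with FGF19. Foxa3, a forkhead factor of hepatocytes, rose with FGF19, by 0.53 ± 0.10 (adjusted p = 0.00656), a call lost without the variance trend (adjusted p = 0.0594). Foxa1, a related factor, rose with FGF15, by 0.39 ± 0.10 (adjusted p = 0.0443), a call lost whichever array was left out, and differed between the hormones by -0.69 ± 0.10 (adjusted p = 0.00584; not called without FGF19 replicate 1, adjusted p = 0.0581). Of 22 tested FOXO1 targets and insulin-repressed genes, 3 rose and 7 fell with FGF15, and 6 rose and 4 fell with FGF19. The medians were -0.21 and -0.13. The 3 that rose with FGF15 were Mttp (0.50, adjusted p = 0.00135), Trib1 (0.47, adjusted p = 0.0395) and Gadd45a (0.46, adjusted p = 0.0457). They also rose with FGF19, at 0.34 (adjusted p = 0.0104), 1.33 (adjusted p = 0.00014) and 1.27 (adjusted p = 0.00023). Set against FGF15, 6 of the 22 were higher and 0 lower with FGF19, where 1.97% and 1.34% of all tested probe sets were. With arrays centred on their medians 7 were higher and 0 lower in that comparison. With arrays centred on their medians, 3 rose and 3 fell with FGF15 and 6 rose and 2 fell with FGF19. Falls then no longer outnumbered rises with FGF15. With 1 array left out, 1 to 2 rose and 2 to 6 fell with FGF15, and 3 to 6 rose and 1 to 4 fell with FGF19. The fewest falls came without a vehicle array. Insr and Irs2 belong to this list as well as to the 10 genes.

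G6pc, the last enzyme of glucose output, gave 590.9 and 661.0 with FGF15, 826.9 and 753.4 with FGF19, and 1602 and 1604 with vehicle. It fell by 1.31 ± 0.08 (adjusted p = 8.3e-06) and 0.99 ± 0.08 (adjusted p = 5.2e-05). Pck1, an enzyme earlier in that route, fell by 0.43 ± 0.08 with FGF15 (adjusted p = 0.00626) and 0.34 ± 0.08 with FGF19 (adjusted p = 0.0209). The first of these calls was lost without vehicle replicate 2 or either FGF15 array, and the second without either vehicle array or when arrays were centred (adjusted p up to 0.0857 and 0.205). Ppargc1a, a coactivator that works with FOXO1, fell by 1.90 ± 0.12 with FGF15 (adjusted p = 1.2e-05) and 0.61 ± 0.12 with FGF19 (adjusted p = 0.0108), a call lost with FGF19 without either vehicle array or FGF19 replicate 1 (adjusted p up to 0.0854). Igfbp1, a secreted protein that insulin represses, gave 709.0 and 742.2 with FGF15, 6925 and 7630 with FGF19, and 740.1 and 752.9 with vehicle. It rose 9.38-fold with FGF19 (3.23 ± 0.07, adjusted p = 5.3e-09) and gave -0.04 ± 0.07 with FGF15. Members of one insulin-repressed list therefore stood on opposite sides of vehicle in the same FGF19 livers.

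Of 13 tested genes on a list of lipogenic and glycolytic genes, 8 rose and 2 fell with FGF15 and 7 rose and 1 fell with FGF19. The medians were 0.44 and 0.32. Over all tested probe sets 4.73% and 5.15% rose and 5.81% and 6.33% fell. The list was drawn up as insulin-induced, which was not tested here for each gene. With 1 array left out, 5 to 8 rose with either hormone, the fewest without a vehicle array. The one that fell with both hormones was Thrsp, at -0.39 ± 0.08 with FGF15 (adjusted p = 0.0121) and -0.29 ± 0.08 with FGF19 (adjusted p = 0.0413). With arrays centred on their medians, 1 gene of the list fell with FGF15 and 0 with FGF19. Me1, malic enzyme, rose by 0.97 ± 0.08 with FGF15 (adjusted p = 4.9e-05) and 1.09 ± 0.08 with FGF19 (adjusted p = 2.4e-05). Insig2, which retains sterol regulators in the endoplasmic reticulum, rose by 0.57 ± 0.08 (adjusted p = 0.00138) and 0.88 ± 0.08 (adjusted p = 9.5e-05). It is counted on this list but is not taken as a gene that insulin induces in liver. Elovl6, a fatty acid elongase, rose more with FGF15, at 0.91 ± 0.09 and 0.39 ± 0.09 (adjusted p = 0.00018 and 0.0176, difference -0.51, adjusted p = 0.00994), and Fasn, fatty acid synthase, more with FGF19, at 0.33 ± 0.07 and 0.85 ± 0.07 (adjusted p = 0.0158 and 7.4e-05, difference 0.51, adjusted p = 0.00352). The Fasn call with FGF15 was lost without either vehicle array or either FGF15 array (adjusted p up to 0.153), and the Elovl6 call with FGF19 without either vehicle array or FGF19 replicate 2 (up to 0.129). The Elovl6 difference between the hormones was lost without FGF15 replicate 2, FGF19 replicate 1 or the variance trend (up to 0.119, the last of these). The Fasn difference between them was lost without the variance trend (adjusted p = 0.085). Srebf1, the transcription factor of this program, gave 372.9 and 401.3 with FGF15, 1063 and 995.6 with FGF19, and 640.9 and 629.1 with vehicle. It fell with FGF15, by 0.67 ± 0.07 (adjusted p = 0.00043), rose with FGF19, by 0.67 ± 0.07 (adjusted p = 0.00044), and differed between the hormones by 1.34 ± 0.07 (adjusted p = 1.2e-05), in every setting tried. All lists were chosen with earlier results of these data known, so their counts are descriptions.

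**Figure D4:**
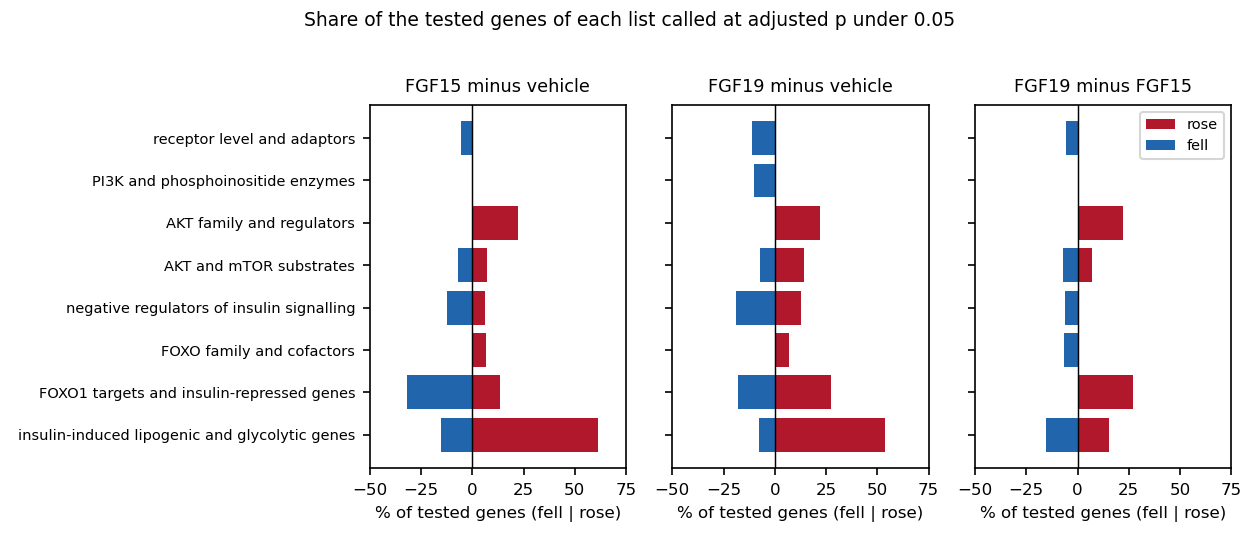
Share of the tested genes of 8 pathway lists (horizontal axis, percent; fell to the left of 0, rose to the right) called at an adjusted p under 0.05 in FGF15 minus vehicle, FGF19 minus vehicle and FGF19 minus FGF15. The longest bars are those of the list labelled insulin-induced lipogenic and glycolytic genes. In it 8 of 13 rose with FGF15 and 7 of 13 with FGF19, while the lists nearest the receptor have 0 to 2 genes called.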

How the data were processed

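Signal intensities of 6 arrays were used as deposited, 1 value per probe set; per the values, every array shares one scaled trimmed mean (about 200.1), and the software behind the intensity values is not named in the labels. Probe sets were named through the platform annotation, updated by Entrez ID. From the deposited intensities log2(signal + 32) was computed, and control probe sets and those under the 25th percentile of the mean were left out of the tests. One limma 3.58.1 model (R 4.3.3; lmFit, eBayes with an intensity trend) over the 3 groups gave 4 contrasts, adjusted by Benjamini-Hochberg over 16983 probe sets. The 10 genes, the pathway and marker lists and the alternatives were chosen with earlier results of these data known. Named pathway genes were those called with the smallest p, up to 4 per list, each by its brightest probe set, besides Igfbp1, G6pc, Pck1 and Srebf1. Mttp, Gadd45a and Thrsp were named in addition. Alternatives changed the offset, normalization, filter, choice of probe sets, variance model, threshold and arrays kept. On simulated data for FGF15 minus vehicle, with 100 changes of each size among 16983 probe sets, 62% of log2 changes of 1 and 16% of 0.5 were recovered, with 5 false calls. Far fewer probe sets were changed there than the 10.5% called with FGF15, which makes the adjustment stricter. These shares therefore do not give the recovery in the comparisons themselves. Precision is set by having 2 arrays per group, with a median standard error of 0.137 per difference.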

Additional observations from a re-analysis of the deposited data

Results flagged for a closer look

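Foxo1 probe set 1416981_at is listed because its effects with the 2 hormones differed by the test of the difference itself. Its signals were 230.7 and 247.1 with FGF19 and 154.3 and 162.7 with FGF15, and FGF19 minus FGF15 was 0.51 ± 0.09 on the log2 scale (limma, adjusted p = 0.0138), higher on both FGF19 arrays than on either FGF15 array. The difference was called in 14 of 18 alternative settings, with adjusted p from 0.0117 to 0.0893. The other tested Foxo1 probe sets gave 0.47 (adjusted p = 0.0559) and 0.25 (adjusted p = 0.463).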

How the results depend on the processing

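Over the 84 tested member results, 10 of them called, the alternatives left the call as it was 1475 times, ended it 47 times, added one 33 times and reversed none; 48 values called in neither setting turned sign. The Grb10 fall (1425458_a_at) with each hormone and in their mean, and the Foxo1 fall (1416981_at) with FGF15, held in every setting. Counts of called probe sets moved most with the arrays kept and the variance model. With 1 array left out, FGF15 minus vehicle gave 742 to 1807 calls (members 2 to 5), FGF19 minus vehicle 755 to 1953 (1 to 2), FGF19 minus FGF15 317 to 484 (0 to 1) and the mean of both hormones 814 to 2122 (1 to 4); the lowest counts over all probe sets came without vehicle replicate 1, and for FGF19 minus FGF15 without FGF19 replicate 1. Without the variance trend the counts were 860, 912, 194 and 1243 (members 1 with FGF19, 0 between hormones, 1 for the mean). With probe sets averaged per gene they were 1161 and 1261 against vehicle and 1454 for the mean, and with 1 probe set per gene the mean gave 1462. At a threshold of 0.10 they were 2961 with FGF19, 926 between hormones and 3383 for the mean.

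Of the member probe sets, FGF15 minus vehicle called 2 with 1 probe set per gene and 7 at 0.10. FGF19 minus vehicle called 1 with an offset of 16, quantile normalization, cyclic loess, no filter, 1 probe set per gene or the robust fit. FGF19 minus FGF15 called 2 with quantile normalization, median centring, cyclic loess, the 50th percentile filter or 0.10, and 0 with 1 probe set per gene or averaged probe sets. The mean called 1 with no filter or 1 probe set per gene and 7 at 0.10. With the replicate block the counts were 1817, 2042, 580 and 2302 (members 4, 3, 2 and 5). Same-numbered arrays did not deviate together (correlations of 0.082, -0.031 and 0.064). With 2 arrays per group this cannot settle whether the numbers mark something shared, and the labels do not say. Where no value shows it, the cause of a lost call was not tested. Signals under the offset, as for Insr, limit what can be seen.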
